A study of Mus musculus with 37 samples.

Results

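Colon of Timp1 knockout control mice from the chronic arm of a dextran sodium sulphate (DSS) colitis study was set against colon of Timp1 knockout control mice from its acute arm. The members are the 8 arrays whose titles name a knockout control, 5 chronic and 3 acute, of 37 arrays in the series. DSS given by mouth injures the colonic epithelium and is a common way to induce colitis in mice. The knockouts carried the targeted allele of B6.129S4-Timp1tm1Pds/J, and the strain field reads C57BL/6J for every animal. Wild-type C57BL/6J controls, 5 chronic and 3 acute, gave the same comparison without the allele, and 5 chronic and 6 acute knockout arrays after DSS are used where stated. Each array read RNA of the snap frozen colon of 1 animal on an Affymetrix Mouse Gene 1.0 ST array, and values are log2 signals. Age, sex, length of stay in the protocol and what the controls received are not in the labels.

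Arm and animal series go together here. All 5 knockout chronic controls have titles that begin with 14, of which 2 begin with 14b (replicates 1 and 2) and 3 with 14d (replicates 3 to 5), and all 3 knockout acute controls have titles that begin with 2dsstimp1ko. No value within a prefix can therefore be had, and arm and prefix cannot be told apart. Y-linked genes averaged 5.29 to 5.37 in the 5 knockout chronic controls, against 5.26, 9.88 and 5.25 in knockout acute control replicates 1, 2 and 3. Xist was at 12.12 to 12.38 in the chronic controls, against 12.36, 5.82 and 12.52 in the acute controls. Acute replicate 2 thus stood apart from the other 7 arrays in both, and read as male where those read as female. Among the DSS arrays used here, knockout acute DSS replicate 4 showed the same pattern, with a Y-linked mean of 9.61. The median signal of the 8 arrays lay between 7.68 and 7.74, and each array correlated with the others of its group at 0.990 to 0.994 on average. The mean signal of the colonocyte list was 11.54 to 11.97 in knockout chronic controls and 11.66 to 11.76 in knockout acute controls, so colon epithelium was well represented in both.

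Timp1 encodes a secreted inhibitor of matrix metalloproteinases, the enzymes that cut collagens and other matrix proteins. Absorption is divided along the gut: bile acids are taken up mainly in the terminal ileum, by the apical carrier Slc10a2 and the basolateral exporter Slc51a with Slc51b, while colonocytes mainly absorb salt and water. Interferons bind receptors on most cells and switch on antiviral genes such as Ifit1 and Oas3 through a factor that recognises the interferon-stimulated response element. The circadian clock is a feedback loop in which Arntl and Clock activate the Per, Cry and Nr1d genes through E-boxes, and the products of those genes in turn repress the activators.

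Promoter windows are shown for Ddx60, Ifit1 and Oas3, interferon-stimulated genes with large differences, and for Cry1, the clock gene that passed the test, since the results below turn on them. Only genes whose window held a motif match were chosen. The windows come from RefSeq (GRCm38.p6) and are written on the strand of the gene. Capitals mark matches to GAAA, any 2 bases and GAAA again, the core of the interferon-stimulated response element, or to CACGTG, an E-box, searched on both strands in the 250 bases before each start. Matches in Ifit1 are on the other strand and so read as the reverse complement. Ddx60 (chr8:61927997-61928086, plus strand) had 2 matches, Ifit1 (chr19:34640765-34640854, plus strand) had 2, Oas3 (chr5:120777665-120777754, minus strand) had 1, and Cry1 (chr10:85185055-85185144, minus strand) had 1.
Ddx60: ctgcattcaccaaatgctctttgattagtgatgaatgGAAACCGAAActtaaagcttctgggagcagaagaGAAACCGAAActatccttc
Ifit1: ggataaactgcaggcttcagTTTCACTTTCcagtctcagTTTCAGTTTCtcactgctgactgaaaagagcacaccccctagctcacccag
Oas3: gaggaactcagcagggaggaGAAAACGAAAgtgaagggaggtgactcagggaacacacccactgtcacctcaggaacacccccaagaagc
Cry1: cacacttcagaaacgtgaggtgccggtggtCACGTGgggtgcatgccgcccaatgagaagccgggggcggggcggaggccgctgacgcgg
Of 32851 RefSeq windows, 2.98% held the interferon-stimulated core and 6.02% held CACGTG. Of the 22 measured genes of the type I interferon list, 16 had a window and 8 of these held that core. Of the 8 genes of that list that passed the test, 5 had a window and 2 of these held the core. Of the 20 measured clock genes, 17 had a window and 5 held CACGTG. A match describes these letters and shows no binding.

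Mature sequences of the microRNA genes with the largest differences follow, from the same RefSeq build, with the seed (bases 2 to 8) in capitals. The mature miR-200b-3p lies at chr4:156055685-156055706 and miR-200a-3p at chr4:156054911-156054932, both on the minus strand, and miR-490-3p lies at chr6:36421800-36421821 on the plus strand. The array reads the gene locus and not the mature arm, so both arms are given.
miR-200b-3p: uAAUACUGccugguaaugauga
miR-200b-5p: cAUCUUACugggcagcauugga
miR-200a-3p: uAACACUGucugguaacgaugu
miR-200a-5p: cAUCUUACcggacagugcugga
miR-490-3p: cAACCUGGaggacuccaugcug
miR-490-5p: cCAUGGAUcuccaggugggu
The 5p arms of miR-200b and miR-200a share the seed AUCUUAC, while their 3p seeds, AAUACUG and AACACUG, are not the same.

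Of 19938 genes tested in knockout controls, 894 passed at an adjusted p under 0.05, which is 4.48% (limma over all 37 arrays with Benjamini-Hochberg adjustment). Of these, 438 were higher (2.2%) and 456 lower (2.29%) in chronic than in acute controls, and the median difference of all genes was 0.04. The largest changes went one way: 39 genes were at least 2-fold lower in knockout chronic controls and 2 were at least 2-fold higher. They include genes of bile acid and calcium transport, epithelial defence, interferon response and lymphocytes. At an unadjusted p under 0.05 there were 4324 genes. The variance of each gene was shared over all 8 groups, the DSS arrays included. With the 16 control arrays of both genotypes alone, 2934 genes passed, 886 of them among the 894. With the 8 arrays alone, 1687 passed, 693 of them among the 894. With title prefix as a random block, 38 genes passed, all of them among the 894, and 3 of the 39 were among them.

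The 39 genes were not at one level in the acute controls. Acute replicate 3 was the lowest of the 3 acute arrays in 30 of them, acute replicate 2 was the highest in 23, and the 5 chronic and 3 acute arrays did not overlap in 36. Such separation held for 425 of all 456 lower calls and 404 of all 438 higher calls, so it goes with the call itself. How many of all genes tested separate in this way was not counted, here or for the single genes below. When the 2 arrays with Y-linked signal were left out, all 39 differences remained negative and 8 of the 39 passed. The whole count fell to 120 genes, 60 in each direction, and 119 of these were among the 894. Leaving out only acute control replicate 2 gave 119 genes, and leaving out only acute control replicate 1 gave 190. Of the chronic controls, leaving out replicate 1, 3 or 4 gave 518, 424 and 426 genes.

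The bile acid transport genes Slc10a2 and Slc51a and the calcium-binding gene S100g were lower in knockout chronic controls. Slc10a2, the apical bile acid carrier, was at 6.37, 6.66, 6.30, 6.23 and 6.44 in chronic controls, against 9.86, 10.39 and 8.04 in acute controls. All 5 chronic arrays lay within the range of the wild-type controls, 6.13 to 7.06, and the 3 acute arrays lay above it, with replicate 3 nearest. Slc10a2 fell by 3.03 ± 0.86 (SE, log2; 8.18-fold; limma adjusted p = 0.0385). Its call ended in 11 of 19 settings, among them leaving out acute replicate 1 or 2 (-2.82 and -2.55) or chronic replicate 1, 3, 4 or 5, and without acute replicate 3 the difference was -3.73.

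Slc51a, a subunit of the basolateral bile acid exporter, was at 6.62, 6.36, 6.58, 6.72 and 6.68 in chronic controls, against 10.20, 10.21 and 8.88 in acute controls. The groups did not overlap, and the difference was -3.17 ± 0.87 (9.01-fold; limma adjusted p = 0.0314). The call ended in 10 of 19 settings, among them leaving out acute replicate 1 or 2 or chronic replicate 1, 3 or 4. It held with the 16 control arrays alone (limma adjusted p = 2.42e-07) and with the 8 arrays alone (limma adjusted p = 3.86e-04). Its partner subunit Slc51b, named after its values were seen, had a difference of -1.28 ± 0.49 (limma adjusted p = 0.123), with 8.87 to 9.54 in chronic and 9.94 to 10.98 in acute controls. S100g, the calcium-binding protein calbindin-D9k of absorptive cells, was at 6.88, 7.19, 6.78, 6.98 and 6.78 in chronic controls and 10.37, 10.36 and 8.04 in acute controls. Acute replicate 3 again stood between the chronic arrays and the other acute arrays. S100g fell by 2.67 ± 0.51 (6.35-fold; limma adjusted p = 0.00331), and its call held without both arrays with Y-linked signal (limma adjusted p = 0.0286) but not without acute replicate 2 alone (limma adjusted p = 0.0591). Without acute replicate 3 the S100g difference was -3.44.

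Abca12, a lipid transporter best known from skin, was at 6.64, 5.95, 6.22, 6.34 and 7.33 in chronic controls and 10.73, 10.70 and 9.53 in acute controls. It fell by 3.83 ± 1.01 (14.2-fold; limma adjusted p = 0.0255), and the call ended in 9 of 19 settings, among them leaving out acute replicate 1 or 2 or chronic replicate 3 or 4. Hkdc1, a hexokinase family member, was at 7.60 to 7.97 in chronic and 8.82 to 10.29 in acute controls (-1.83 ± 0.55, limma adjusted p = 0.049), and its call ended in 14 of 19 settings, among them leaving out any 1 of the chronic controls or acute replicate 1 or 2. These genes shared the split within the acute controls, replicates 1 and 2 being above replicate 3.

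The list of genes that mark position along the gut had 1 of 32 members called, Slc10a2, against 4.48% of all genes, and a median difference of 0.01. Its mean signal was nevertheless lower in chronic controls, 8.91 to 8.95, than in acute controls, 9.14 to 9.26. In wild type the list mean was 8.85 to 9.10 in chronic and 8.78 to 8.81 in acute controls. Osr2, a transcription factor gene of that list, was at 7.15 to 7.41 in chronic controls and at 10.09, 10.74 and 8.50 in acute controls, with a difference of -2.53 ± 0.89 that did not pass (limma adjusted p = 0.0888). Sis, the small-intestinal disaccharidase sucrase-isomaltase, was at 5.44 to 5.61 in chronic controls and at 7.77, 9.54 and 5.63 in acute controls (limma adjusted p = 0.0763). Some other genes of small intestine had small differences. The ileal bile acid binding protein gene Fabp6 was at 6.62 to 6.80 in chronic and 6.59 to 7.20 in acute controls. Lct, which encodes lactase, and Apoa4, an apolipoprotein gene of proximal small intestine, had differences of 0.14 and 0.18, and Gata4, a transcription factor gene of proximal small intestine, had one of 0.14. Sis, Fabp6, Lct, Apoa4 and Gata4 were named after their values were seen. Other genes looked at in the same way, among them Alpi and Fgf15, are not given here. Hoxb6, with the next largest difference of that list, differed by -1.31 (limma adjusted p = 0.138). How far small-intestinal or proximal tissue entered these arrays was not tested.

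Slc51a and Sis were also high after DSS in the animal series of the acute controls. Slc51a was at 6.79, 8.32, 7.84, 10.46 and 6.78 in knockout chronic DSS arrays, against 11.33, 10.20 and 10.64 in the 3 knockout acute DSS arrays with the prefix 2dsstimp1ko. In the 3 knockout acute DSS arrays with plain numbers it was at 6.95, 6.58 and 6.78. Within knockout acute DSS, the arrays with the 2dsstimp1ko prefix were thus all above those with plain numbers in Slc51a. Sis was at 8.52, 8.13 and 7.86 in the acute DSS arrays with the 2dsstimp1ko prefix, against 5.33, 5.42 and 5.37 in those with plain numbers. Among the knockout chronic DSS arrays, replicate 4 stood highest in both genes, with 10.46 for Slc51a and 9.17 for Sis. Slc51b showed no such split by prefix within knockout acute DSS. It was at 11.13, 10.49 and 10.70 with the 2dsstimp1ko prefix and at 11.33, 10.31 and 11.35 with plain numbers. Slc10a2 split as Slc51a did (9.36 to 10.62 with 2dsstimp1ko against 7.07 to 8.72). Abca12, Hkdc1, S100g, Osr2 and, described below, Cyp2c66, Ces1g, Defb37 and Ddx60 did so too, all higher with 2dsstimp1ko. Reg3g, Ifit1, Oas3 and Ccl5 overlapped between the prefixes. Retnlb (10.48 to 10.85 against 10.88 to 12.22) and Ido1 (9.11 to 10.49 against 11.86 to 12.58) were lower with 2dsstimp1ko. The cause was not tested.

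Xenobiotic and steroid metabolism genes encode enzymes that oxidise, cleave or conjugate drugs, hormones and lipids. Of 51 measured, 1 passed as higher and 2 as lower, near the shares of all genes (2.2% and 2.29%), and 39 of 51 differences were negative, with a median of -0.27. Ces1g, a carboxylesterase, was at 8.49, 8.93, 8.55, 8.52 and 9.05 in chronic and at 11.48, 11.40 and 10.14 in acute controls (-2.30 ± 0.68, 4.91-fold, limma adjusted p = 0.0455). Cyp2c66, a cytochrome P450 that acts on fatty acids, was at 7.30, 6.72, 7.48, 7.54 and 7.61 in chronic and at 9.74, 9.65 and 8.83 in acute controls (-2.07 ± 0.60, 4.21-fold, limma adjusted p = 0.0418). In both genes the groups did not overlap, and the calls ended in 13 and 12 of 19 settings, among them leaving out acute replicate 1 or 2. The neighbouring family member Cyp2c65 had the largest difference of the list, -3.44 ± 1.28, and did not pass (limma adjusted p = 0.111). Gstt1, a glutathione transferase, was the member that rose, by 0.39 ± 0.12 (limma adjusted p = 0.0477).

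Antibacterial genes of the epithelium gave some of the largest differences. Reg3g, a lectin that kills Gram-positive bacteria, was at 5.59, 5.49, 5.30, 8.33 and 6.16 in chronic controls, against 10.37, 11.96 and 8.19 in acute controls. Chronic replicate 4 lay above acute replicate 3, so the groups overlapped. Reg3g fell by 4.0 ± 1.09 (16.0-fold; limma adjusted p = 0.0306). Without acute replicate 2 the difference was -3.11 (limma adjusted p = 0.244) and without acute replicate 3 it was -4.99, and the call ended in 9 of 19 settings, among them leaving out acute replicate 1 or chronic replicate 1 or 3.

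Retnlb, a goblet cell protein that acts against bacteria and is induced in intestinal inflammation, was at 9.06, 6.18, 5.62, 5.64 and 6.24 in chronic controls, against 9.97, 10.11 and 10.01 in acute controls. The acute arrays were close to each other, and chronic replicate 1 stood nearest to them. Retnlb fell by 3.48 ± 0.89 (11.2-fold; limma adjusted p = 0.0223). The call ended in 8 of 19 settings, among them leaving out any 1 acute array or chronic replicate 3 or 4, and without chronic replicate 1 the difference was -4.11. Reg3b, a sister gene of Reg3g named after its values were seen, was at 5.91, 5.94, 6.32, 7.82 and 5.93 in chronic and at 10.33, 11.89 and 7.60 in acute controls, and its difference of -3.56 ± 1.25 did not pass (limma adjusted p = 0.0911). Defb37, a beta-defensin gene, was at 5.17 to 5.76 in chronic and at 7.32, 8.73 and 5.76 in acute controls (-1.75 ± 0.50, limma adjusted p = 0.0399), again with acute replicate 3 at the chronic level. Without acute replicate 2 the Defb37 difference was -1.02 (limma adjusted p = 0.389). Of 26 genes in the antibacterial list, 2 were lower (against 2.29% of all genes) and none higher, with a median of 0.09, so the change was limited to a few members. For comparison with inflamed colon, Reg3g was at 7.69 to 12.49 in the 5 knockout chronic DSS arrays, and 11.38 to 12.55 in the 3 acute DSS arrays with the 2dsstimp1ko prefix. The knockout acute controls, at 8.19 to 11.96, overlapped both.

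**Figure D1:**
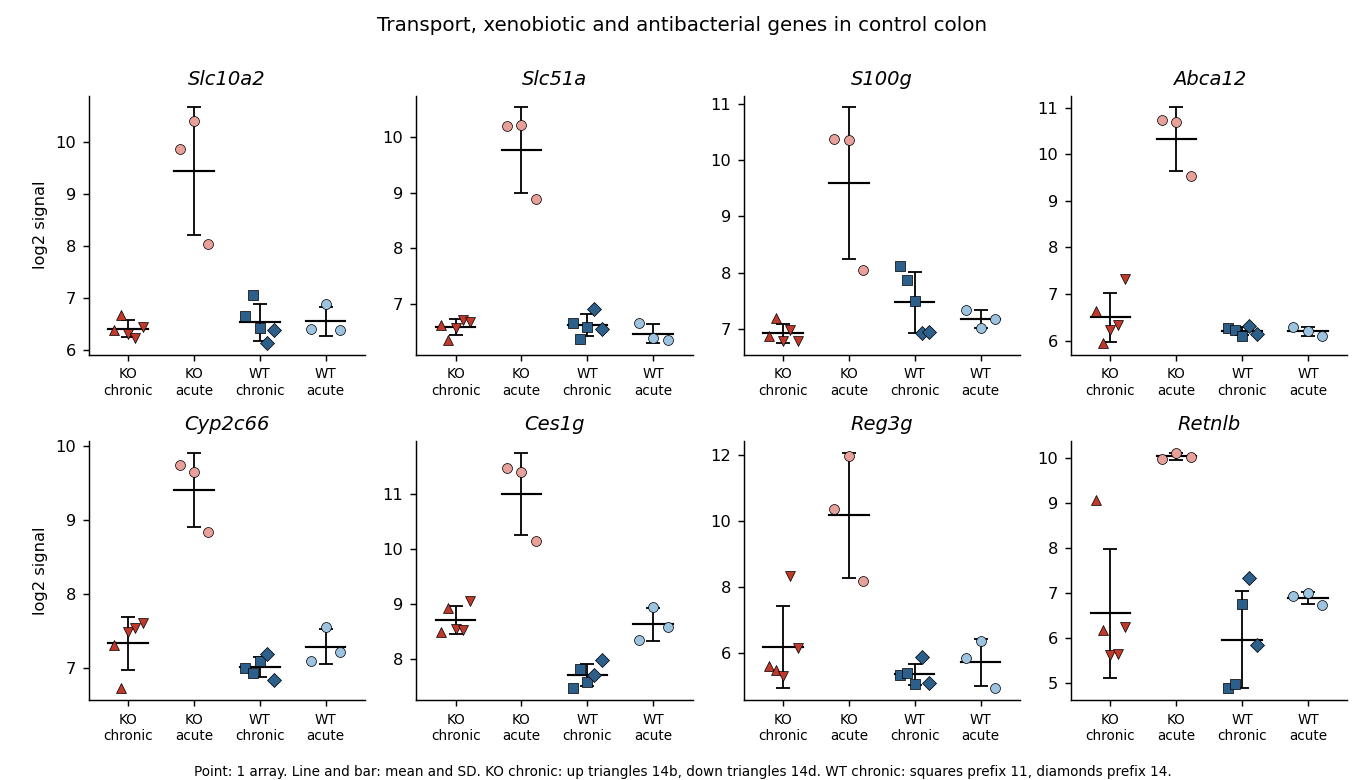
Log2 signal of 8 genes of transport, xenobiotic metabolism and epithelial defence in each control array, with group means and SD, for knockout chronic, knockout acute, wild-type chronic and wild-type acute controls. Slc51a was at 8.88 to 10.21 in knockout acute controls and at 6.35 to 6.92 in all other control arrays, while Reg3g and S100g in knockout acute replicate 3 overlapped arrays of another group.

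Interferon-stimulated genes were lower in knockout chronic controls. Of 22 measured genes of the type I list, 8 were lower and none higher, all 22 differences were negative and the median was -0.67, against 0.04 for all genes and 2.29% of all genes called lower. The 8 were Ifit1, Oas2, Oas3, Oasl2, Ifih1, Rtp4, Xaf1 and Parp14. The mean signal of the list was 8.21 to 8.50 in chronic and 8.85 to 9.50 in acute controls, without overlap. Such separation was not particular to this list. Neutrophil genes (6.74 to 6.89 against 6.64 to 6.70) and pancreas and liver genes (7.41 to 7.65 against 7.23 to 7.32) separated too, as higher. How many of the lists do so was not counted. With the arrays of Y-linked signal left out, the median was -0.59 and 1 of the 22 passed.

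Ddx60, a helicase that promotes sensing of viral RNA, was at 7.29, 7.33, 7.29, 7.46 and 7.95 in chronic controls, against 10.28, 10.19 and 9.17 in acute controls. The groups were far apart, and the window printed above for this gene holds 2 motif matches. Ddx60 fell by 2.42 ± 0.33 (5.34-fold; limma adjusted p = 2.54e-04), and it passed in all 19 alternative settings, with differences from -2.77 to -2.19.

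Ifit1, which binds viral RNA that lacks the cap methylation of the host, was at 7.19, 7.57, 7.79, 8.07 and 8.65 in chronic and at 10.27, 10.47 and 9.29 in acute controls (-2.15 ± 0.43, limma adjusted p = 0.00429). Oas3, which makes the oligoadenylates that activate RNase L, was at 7.42, 7.03, 7.56, 7.77 and 7.70 in chronic and at 9.89, 9.50 and 8.68 in acute controls (-1.86 ± 0.31, limma adjusted p = 0.00127). For both, every chronic array was below every acute array, and Oas3 passed in all 19 settings. Oasl2, an oligoadenylate synthetase-like gene, was at 9.10 to 10.28 in chronic and 10.72 to 11.51 in acute controls (-1.54 ± 0.34, limma adjusted p = 0.0104). Ifih1, the cytoplasmic RNA sensor MDA5, fell by 0.50 ± 0.12 (limma adjusted p = 0.0139). Of 17 genes induced by interferon gamma, 3 were lower (against 2.29% of all genes) and none higher, with a median of -0.50. They were Ido1, which degrades tryptophan, at 6.63 to 7.46 in chronic and 8.21 to 9.48 in acute controls (-1.89 ± 0.56, limma adjusted p = 0.0478), and the GTPase genes Gbp8 (-0.87 ± 0.23) and Irgm1 (-0.97 ± 0.28). Apol10a and the chemokine gene Cxcl9 had differences of -1.74 and -1.55 and did not pass (limma adjusted p = 0.161 for each).

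Genes of antigen presentation by MHC class I moved with them. Of 11 measured, 4 were lower (against 2.29% of all genes) and none higher, and the median was -0.54. B2m, the light chain of all class I molecules, was at 12.67, 12.80, 12.78, 12.90 and 13.02 in chronic and at 13.40, 13.49 and 13.39 in acute controls (-0.59 ± 0.11, limma adjusted p = 0.00195). The acute arrays were tightly grouped above the chronic ones. Psmb8, an immunoproteasome subunit, was at 8.23 to 8.66 in chronic and 9.30 to 9.59 in acute controls (-1.11 ± 0.25, limma adjusted p = 0.0104). Tap1, a subunit of the peptide transporter, was at 9.21 to 9.58 in chronic and 10.16 to 10.45 in acute controls (-1.0 ± 0.28, limma adjusted p = 0.0384), and Psmb9 fell by 0.79 ± 0.20. Class II genes did not pass as lower, at a median of -0.53 over 10 genes: H2-Aa had a difference of -0.99 ± 0.34 (limma adjusted p = 0.0818) and H2-Ab1 one of -0.98 ± 0.32 (limma adjusted p = 0.069). The member called there, H2-Ea, was higher by 0.22 at low signals, 5.90 to 6.26 in chronic and 5.80 to 5.89 in acute controls.

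T cell and intraepithelial lymphocyte genes were lower in part. Of 26, 7 were lower (against 2.29% of all genes) and none higher, with a median of -0.24. In whole colon, fewer lymphocytes and less RNA per lymphocyte cannot be told apart. Cd3g, a chain of the T cell receptor complex, was at 6.40, 5.89, 6.29, 6.08 and 6.33 in chronic and at 7.45, 7.89 and 7.65 in acute controls (-1.46 ± 0.29, 2.75-fold, limma adjusted p = 0.00429). Ccl5, a chemokine of cytotoxic lymphocytes, was at 7.94, 7.88, 8.01, 7.82 and 8.12 in chronic and at 9.40, 10.25 and 9.61 in acute controls (-1.80 ± 0.47, 3.48-fold, limma adjusted p = 0.0243). The arrays did not overlap in either gene. Cd3e (-0.86), Cd8b1 (-0.55), the granule protease Gzma (-1.11), the granule gene Nkg7 (-1.14) and the chemokine gene Xcl1 (-0.39) were the other members called, and Gzmb, with -1.38 ± 0.45, was not (limma adjusted p = 0.0695). Without the arrays of Y-linked signal, none of the 26 passed and the median was -0.26. With title prefix as a random block, 1 type I gene, 1 class I gene and none of the interferon gamma, T cell or fibroblast genes passed, and the list medians kept their signs. The B cell list had no call in 17 genes and a median of -0.31, with list means of 7.44 to 7.66 in chronic and 7.18 to 8.66 in acute controls. The macrophage, monocyte and dendritic list had 1 of 25 lower, against 2.29% of all genes, and a median of 0.04. The 1 called was the monocyte chemoattractant gene Ccl8 (-1.18 ± 0.32, limma adjusted p = 0.0293).

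**Figure D2:**
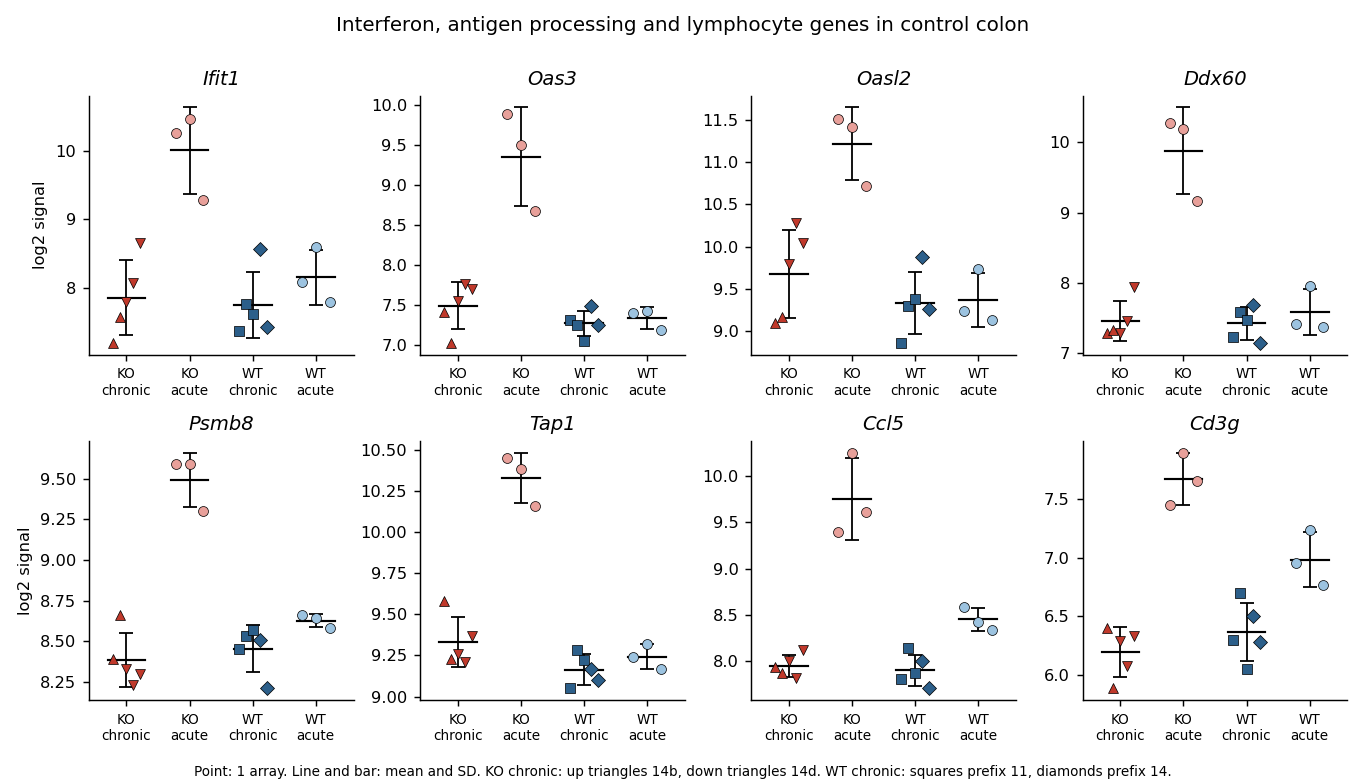
Log2 signal of interferon-stimulated, antigen-processing and lymphocyte genes in each control array, with group means and SD, for knockout chronic, knockout acute, wild-type chronic and wild-type acute controls. Ddx60 was at 7.29 to 7.95 in knockout chronic controls and at 9.17 to 10.28 in knockout acute controls, while the wild-type controls lay between 7.15 and 7.96.

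In wild-type controls these groups showed no such difference. None of the 22 type I, 17 interferon gamma, 11 class I or 26 T cell genes passed, with medians of -0.04, -0.03, -0.01 and -0.02, in a comparison in which 7.02% of all genes passed, 3.5% as higher and 3.52% as lower. The difference between the genotypes was itself tested and did not pass for any member of these lists, among them Oas3 (-1.79, limma adjusted p = 0.151). It also did not pass for Ddx60 (-2.26, limma adjusted p = 0.0786) or Slc51a (-3.32, limma adjusted p = 0.478), which are in none of the 4 lists. Its median was -0.75 over the type I genes and -0.48 over the class I genes, in a comparison in which 0.0201% of all genes passed as higher and 0.00502% as lower. How many genes passed depended on the fit. The count was 5 here, 292 with the 16 control arrays alone, 1050 with array weights and 0 with title prefix as a random block.

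Some fibroblast genes were higher in knockout chronic controls. Of 26 fibroblast genes, 3 were higher and none lower, 24 of 26 differences were positive and the median was 0.28, against 2.2% of all genes called higher. The largest difference of the list, 1.14, did not pass. Wnt2b, a ligand made by subepithelial cells, was at 9.83, 9.88, 9.72, 9.77 and 9.65 in chronic controls, against 8.50, 8.87 and 8.77 in acute controls. Bmp4, a ligand that opposes stem cell self-renewal, was at 11.18, 11.50, 11.37, 11.46 and 11.38 in chronic controls, against 10.13, 10.81 and 10.42 in acute controls. Every chronic array was above every acute array in both. Wnt2b rose by 1.06 ± 0.24 (2.08-fold; limma adjusted p = 0.0125) and Bmp4 by 0.93 ± 0.24 (limma adjusted p = 0.0248), and their calls ended in 5 and 8 of 19 settings, among them leaving out acute replicate 1 or 2 for each.

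Grem1, a secreted antagonist of BMPs, had a difference of 1.01 ± 0.46 and did not pass (limma adjusted p = 0.193). Ccn2, connective tissue growth factor, was at 10.16 to 11.02 in chronic and 9.82 to 10.04 in acute controls (0.76 ± 0.20, limma adjusted p = 0.0273). Lyve1, a hyaluronan receptor of lymphatic endothelium, was at 9.95 to 10.35 in chronic and 9.01 to 9.41 in acute controls (0.92 ± 0.27, limma adjusted p = 0.0468). It was the 1 gene called of 18 endothelial genes, where 4.48% of all genes were called. The Lyve1 call ended in 14 of 19 settings, among them leaving out any 1 of the 8 arrays. None of the fibroblast genes passed when the arrays with Y-linked signal were left out, at a median of 0.34. Ccdc3, a secreted coiled-coil protein, was at 9.70, 10.03, 9.80, 9.97 and 10.02 in chronic and at 9.06, 9.23 and 8.83 in acute controls (0.86 ± 0.15, limma adjusted p = 0.00155). Ahnak2, a large scaffold protein gene, was at 10.00, 9.96, 9.87, 9.72 and 9.59 in chronic and at 8.92, 8.96 and 9.10 in acute controls (0.83 ± 0.14, limma adjusted p = 0.00155). Both passed in all 19 settings, and both also rose in wild-type chronic against wild-type acute controls, by 0.66 each (limma adjusted p = 0.00712 and 0.00559).

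The other genes with the largest rises were Capsl (0.90), a calcium-binding protein gene, Capn6 (0.88), a calpain without protease activity, Gpm6a (0.83), a membrane glycoprotein of neurons, Ptger1 (0.77), a prostaglandin E2 receptor, and Dusp6 (0.75), a phosphatase that turns off ERK. Ptger1 was at 8.83 to 9.12 in chronic and 8.08 to 8.26 in acute controls (limma adjusted p = 0.00287). Capsl was at 7.64 to 8.36 in chronic and 7.02 to 7.29 in acute controls (limma adjusted p = 0.00324). Dusp6 differed within the chronic group, with 10.20 and 10.28 in the 14b arrays and 10.87, 11.15 and 11.01 in the 14d arrays, against 9.89 to 10.06 in acute controls.

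Collagen, matrix and metalloproteinase genes had no call. For 37 collagen and matrix genes 34 differences were positive with a median of 0.23, the largest being Fbln1 (0.64, limma adjusted p = 0.0657), and for 31 metalloproteinase and inhibitor genes the median was 0.19. Timp1 was at 7.03, 6.84, 6.95, 7.46 and 7.43 in chronic controls and 7.12, 6.97 and 6.94 in acute controls, and its difference was 0.13 ± 0.39 (limma adjusted p = 0.877). In wild-type controls it was at 6.99 to 7.28 in the chronic and 7.56 to 7.76 in the acute arm. Which part of Timp1 the probes cover is not given in the sources used here, so these levels are no check of the genotype labels. Timp2 (0.41), Timp3 (0.49) and Timp4 (0.07), the other inhibitors of the family, did not pass (limma adjusted p = 0.168, 0.304 and 0.909). Every chronic array was above every acute array for Timp2 and Timp3, but how many of all genes separate in this way was not counted. Mmp2, the gelatinase of stromal cells, had the largest difference of the list, 0.70 ± 0.28 (limma adjusted p = 0.133).

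MicroRNA genes passed in 1 direction. Of 300 measured, 35 were higher and none lower, with a median of 0.16, where 2.2% of all genes were higher. Mir200b was at 10.12, 9.55, 9.78, 9.35 and 10.04 in chronic controls, against 8.02, 8.07 and 8.78 in acute controls (1.48 ± 0.43, 2.79-fold, limma adjusted p = 0.0415). Mir200a was at 8.85, 8.53, 8.61, 8.37 and 8.51 in chronic controls, against 7.71, 7.70 and 7.86 in acute controls (0.82 ± 0.22, limma adjusted p = 0.026). The miR-200 family, whose sequences are printed above, is enriched in epithelium and represses the Zeb factors. Mir490 was at 6.90 to 7.33 in chronic and 6.05 to 6.21 in acute controls (0.96 ± 0.22, limma adjusted p = 0.0122). In all 3 the chronic arrays lay above the acute arrays without overlap. The call of Mir200b ended in 11 of 19 settings and that of Mir200a in 8, among them leaving out acute replicate 1 or 2 for each.

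The other 32 microRNA genes called were higher by 0.28 to 0.71. A mature sequence was matched for 34 of the 35, all but Mir30b. Among the matched genes, 3 more pairs shared a seed, and they are shown because called genes can be grouped by it; they were picked for the shared seed among genes already called. Capitals again mark bases 2 to 8.
miR-17-5p: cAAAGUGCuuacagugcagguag
miR-106a-5p: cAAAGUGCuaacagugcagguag
miR-25-3p: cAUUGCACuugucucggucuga
miR-32-5p: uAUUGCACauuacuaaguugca
miR-30a-5p: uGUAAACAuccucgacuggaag
miR-30c-5p: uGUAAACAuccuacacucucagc
Mir17 rose by 0.51 and Mir106a by 0.36, Mir25 rose by 0.34 and Mir32 by 0.45, and Mir30a rose by 0.38 and Mir30c-2 by 0.64. Mir30c-2 also rose in wild-type chronic controls, by 0.40 (limma adjusted p = 0.0293). Wild-type controls had 19 of the 300 higher and 2 lower, with a median of 0.10. Without the arrays of Y-linked signal, 5 of the 300 passed in knockout controls, all higher. There were 3 with title prefix as a random block and 4 with the 14b arrays alone as chronic controls, again all higher.

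**Figure D3:**
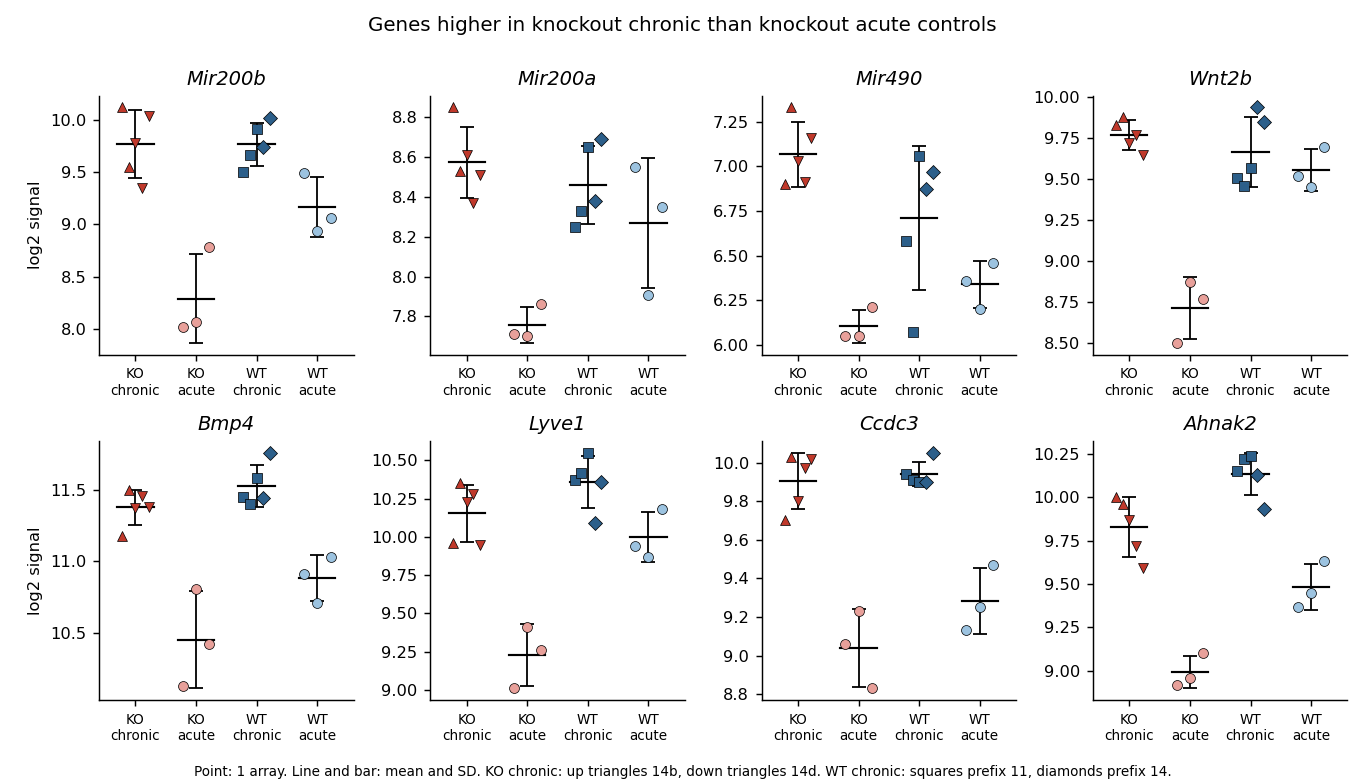
Log2 signal of microRNA, stromal and other genes in each control array, with group means and SD, for knockout chronic, knockout acute, wild-type chronic and wild-type acute controls. Knockout chronic controls were above knockout acute controls in all 8 genes, for example Wnt2b at 9.65 to 9.88 against 8.50 to 8.87, and Ccdc3 and Ahnak2 were also higher in the wild-type chronic controls.

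Some genes of ribosomes and of mitochondrial respiration were lower in chronic controls of both genotypes. Of all 60 ribosomal protein genes by symbol, 12 were lower in knockouts and 20 in wild type, with medians of -0.14 and -0.19, where 2.29% and 3.52% of all genes were lower. With title prefix as a random block, none of the 60 passed in knockouts. Of the 18 in the ribosomal list, 8 were lower in knockouts and 9 in wild type. Rps7, a protein of the small subunit, was at 12.21, 12.16, 12.01, 11.98 and 12.12 in knockout chronic controls and 12.45, 12.45 and 12.52 in knockout acute controls (-0.37 ± 0.07, limma adjusted p = 0.00207). It fell by 0.41 in wild type (limma adjusted p = 3.04e-04). Rpl14 and Rpl13 fell by 0.46 and 0.34 in knockouts, and by 0.57 and 0.66 in wild type. Of 30 genes of oxidative phosphorylation, 3 were lower in knockouts (Cox4i1, Ndufs1 and Atp5c1) and 7 in wild type. Mitochondrial ribosomal protein genes had 13 of 77 lower in knockouts and 35 of 77 in wild type, and small nucleolar RNA genes, which guide modification of ribosomal RNA, had 10 and 9 of 54 lower. No gene of these families passed as higher in either genotype, and none differed between genotypes by the test of the difference. The ribosomal list had 3 of 18 lower without the arrays of Y-linked signal, none with the 14b arrays alone as chronic controls and 8 with the 14d arrays alone.

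Clock genes split the knockout chronic controls by title. Nr1d1, the repressor REV-ERB alpha, was at 12.18 and 11.92 in the 14b arrays and 10.49, 9.91 and 10.84 in the 14d arrays of the chronic controls, against 12.17, 12.19 and 12.14 in acute controls. Dbp, a transcription factor that carries clock output, was at 10.90 and 10.71 in the 14b arrays and 9.12, 8.69 and 9.21 in the 14d arrays, against 10.29, 10.46 and 10.51 in acute controls. In both genes the 14b arrays were close to the acute arrays or above them, and the 14d arrays were below all acute arrays. Cry1, a repressor of the loop, ran the other way, with 8.06 and 8.28 in the 14b arrays and 9.11, 9.0 and 8.96 in the 14d arrays, against 8.01, 7.84 and 7.91 in acute controls.

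Cry1 was the only gene called of 20 clock genes (0.76 ± 0.20, 1.70-fold, limma adjusted p = 0.0246), where 4.48% of all genes were called. With the 14b arrays alone as chronic controls its difference was 0.25 and the call was lost, while with the 14d arrays alone it was 1.10 (limma adjusted p = 0.635 and 0.00141). The call was also lost with prefix as a block, with the 8 arrays alone, and without any 1 of acute replicates 1 to 3 or chronic replicates 3 to 5. Nr1d1 (-1.10 ± 0.34, limma adjusted p = 0.053), Nr1d2 (-0.81, limma adjusted p = 0.0818) and Per2 (0.78, limma adjusted p = 0.0719) did not pass, nor did Dbp (-0.70, limma adjusted p = 0.341), Tef (-0.03), Ciart (-0.46), Per3 (-0.06), Per1 (0.15), Arntl (0.49), Nfil3 (0.33) or Bhlhe41 (-0.60). Clock, Cry2, Rora, Hlf, Bhlhe40, Usp2, Csnk1e and Csnk1d differed by 0.28 or less in size. The 14d and 14b arrays, set against each other after their values were seen, gave no call over all genes, with 878 genes at an unadjusted p under 0.05. Nr1d1 and Nr1d2 came closest, with differences of -1.64 and -1.38 for 14d against 14b (limma adjusted p = 0.0925 for each). What the letters after 14 stand for, and the hour of sampling, are not given in the sources used here.

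**Figure D4:**
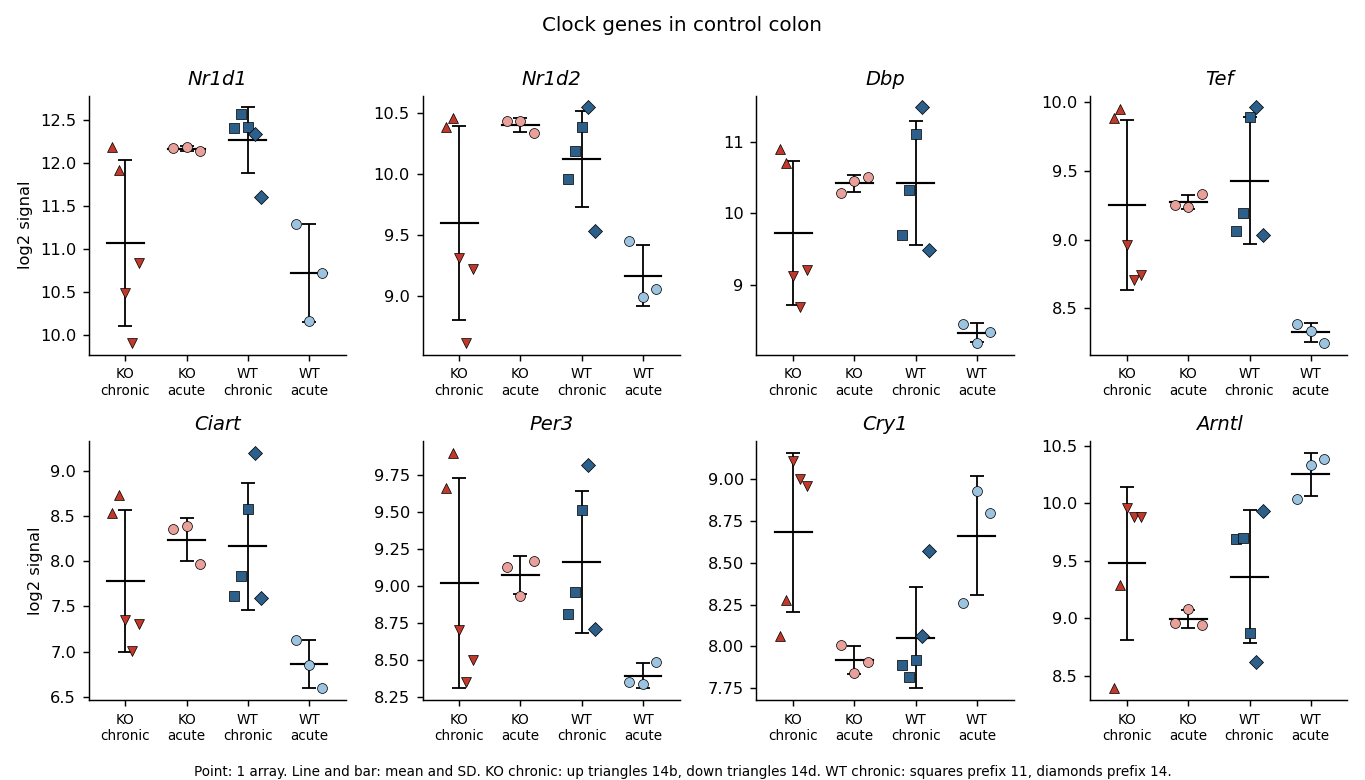
Log2 signal of 8 clock genes in each control array, with group means and SD, for knockout chronic, knockout acute, wild-type chronic and wild-type acute controls; triangles point up for the 14b and down for the 14d arrays. The 14d arrays were below the 14b arrays in Nr1d1, Nr1d2, Dbp, Tef, Ciart and Per3 and above them in Cry1 and Arntl.

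In wild-type controls, 7 of 20 clock genes passed as higher (against 3.5% of all genes) and none as lower, with a median of 0.39. Dbp was at 9.70, 10.33, 11.12, 11.49 and 9.49 in wild-type chronic and at 8.45, 8.18 and 8.34 in wild-type acute controls (2.10 ± 0.42, limma adjusted p = 0.00226). Nr1d1 was at 11.60 to 12.57 in wild-type chronic and 10.16 to 11.29 in wild-type acute controls (1.54 ± 0.34, limma adjusted p = 0.00488). The difference between genotypes, knockout minus wild type, was -2.64 for Nr1d1 (limma adjusted p = 0.0494), -2.80 for Dbp (limma adjusted p = 0.0844) and 1.37 for Cry1 (limma adjusted p = 0.0763). Nr1d1 was at 12.14 to 12.19 in knockout acute controls and 10.16 to 11.29 in wild-type acute controls, so the acute arms also differed.

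Taken over all genes, wild-type controls had 1400 calls (7.02%), 698 higher and 702 lower in chronic than acute. Knockout and wild-type controls shared 257 called genes, 28.7% of the knockout calls and 18.4% of the wild-type calls. Of these, 89 were higher in both, 167 were lower in both, and Gfer, a sulfhydryl oxidase of the mitochondrial intermembrane space, went opposite ways. Across 19938 genes the knockout and wild-type differences had a Pearson correlation of 0.391; they share no array, and genes are not independent replicates. Of the 39 genes at least 2-fold lower in knockouts, 4 passed as lower in wild type, and their median difference there was -0.15.

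The difference between genotypes passed for 5 of 19938 genes (0.0251%). Nr1d1 is described above. Capsl was at 7.64 to 8.36 in knockout chronic and 7.02 to 7.29 in knockout acute controls, and at 7.64 to 8.27 in wild-type chronic and 8.27 to 8.33 in wild-type acute controls. The acute groups differed and the chronic groups overlapped. Gfer was at 9.22 to 9.47 and 8.92 to 9.08 in knockout chronic and acute controls, and at 9.06 to 9.39 and 9.47 to 9.58 in wild-type chronic and acute controls. Bex4, a small protein gene, and Nprl2, a subunit of the GATOR1 complex that restrains mTORC1, were lower in wild-type chronic than wild-type acute controls (-0.54 and -0.40), had differences of 0.31 and 0.09 in knockouts that did not pass, and gave genotype differences of 0.85 and 0.50. All 5 had a limma adjusted p of 0.0494, and the count was 0 with a trended and robust prior, 0 with title prefix as a random block and 1050 with array weights, so it is set by the fit.

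The DSS arrays of the same prefixes gave a further comparison, in which arm and prefix again changed together and cannot be told apart. Knockout chronic DSS against knockout acute DSS with the 2dsstimp1ko prefix had 964 calls (4.83%), 428 higher (2.15%) and 536 lower (2.69%). It shared 74 lower calls with the controls, 8.28% of the control calls and 7.68% of the DSS calls. It shared 37 higher calls, 4.14% and 3.84% of the same totals, and none went opposite ways. Across genes the correlation with the control difference was 0.451, with no array shared. All 39 genes at least 2-fold lower in chronic controls had a negative difference there as well, with a median of -1.02, and 14 of them passed, among them S100g (-2.09), Slc51a (-2.68), Ddx60 (-1.45), Oas3 (-1.08) and Psmb8 (-1.09). Reg3g (-1.62) and Slc10a2 (-2.15) did not pass there, and Retnlb differed by -0.03.

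Within knockout acute DSS, the 2dsstimp1ko arrays against those with plain numbers gave 2988 calls (15%), 1354 higher (6.79%) and 1634 lower (8.2%). Both sides had the same labelled genotype, arm and treatment. A positive difference here means higher with the 2dsstimp1ko prefix, the prefix of the knockout acute controls. Across genes its Pearson correlation with the knockout control difference was -0.259, with no array shared. The cause was not tested. In wild-type chronic controls, prefix 14 against prefix 11 gave 22 calls (0.11%), and the same correlation was 0.018.

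The remaining lists had few or no calls in knockout controls. No gene passed among the immediate early and heat shock, glucocorticoid, plasma cell, T helper 17, neutrophil, mast cell, colonocyte transport, crypt base, cell cycle, enteroendocrine and tuft, unfolded protein, smooth muscle, adipocyte and mesothelium, erythroid or histone lists. Goblet cell genes had Retnlb alone, lipid metabolism Acadl (-0.64, a fatty acid oxidation enzyme) and enteric neurons and glia Nefl (-0.97 ± 0.24, the neurofilament light chain, limma adjusted p = 0.0182). Nts, a gut hormone gene of distal small intestine in the enteroendocrine list, was at 5.78 to 6.00 in chronic controls and at 7.56, 9.0 and 6.27 in acute controls and did not pass (limma adjusted p = 0.0806). Skeletal muscle (Myh2 and Actn3), pancreas (Ctrb1) and sex chromosome (Zfy2) lists had 2, 1 and 1 higher calls of 0.31 to 0.40, at signals of 4.70 to 7.82.

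**Figure D5:**
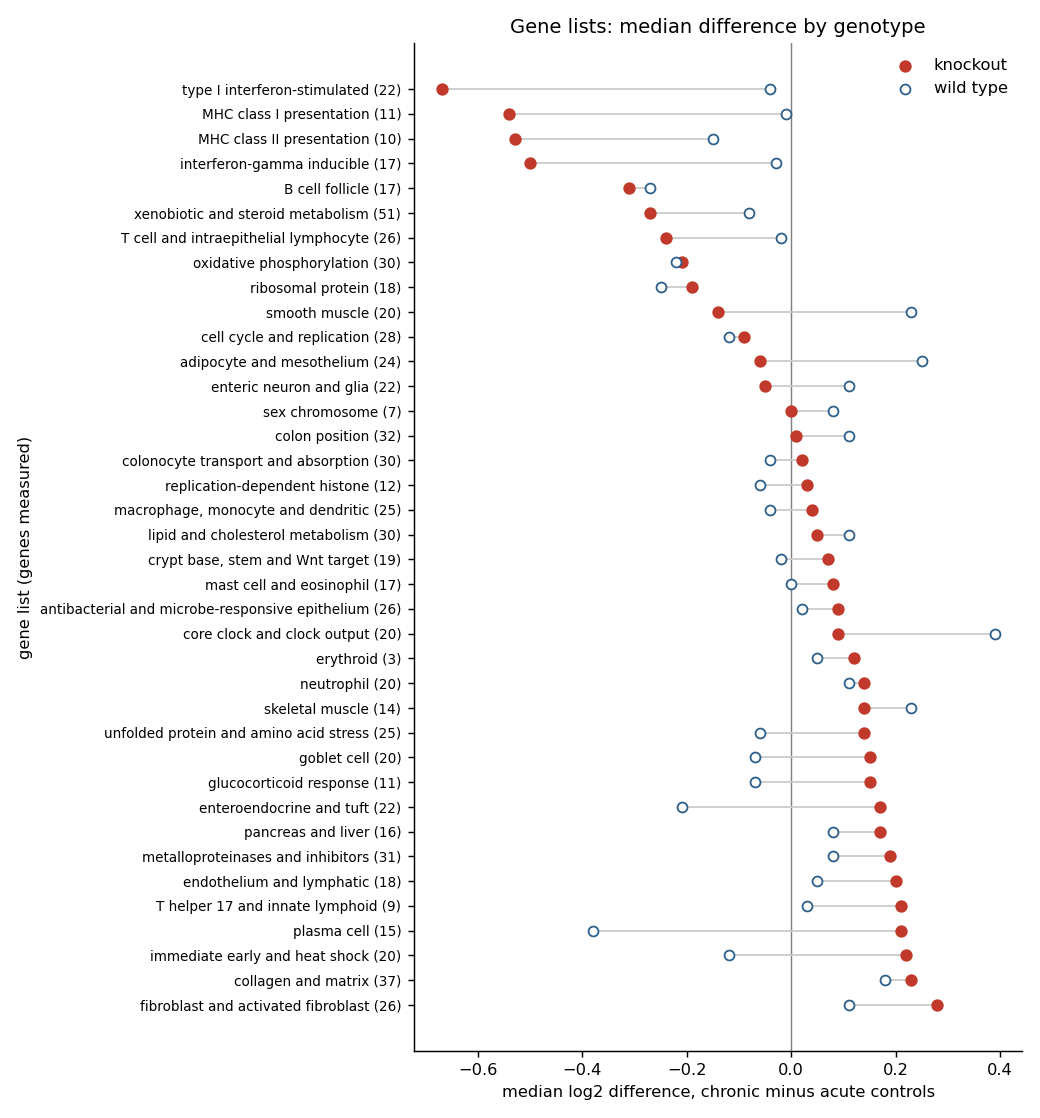
Median log2 difference of chronic against acute controls for each of 38 gene lists, in knockout (filled points) and wild-type (open points) mice, with the number of genes measured in parentheses. The type I interferon list had the most negative knockout median, -0.67 against -0.04 in wild type, and the fibroblast list the most positive, 0.28 against 0.11 in wild type.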

How the data were processed

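The authors deposited 1 log2 value per transcript cluster and array, made with RMA per the submitters' processing notes. The version and any filter are not given in the sources used here. The log base was read as 2 from the range of the values.

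Of 35511 clusters, 21789 had 1 gene symbol in the probe annotation. Where a gene had several, that of highest average signal represented it, which left 19938 genes. All 37 arrays entered 1 limma model (limma 3.58.1, R 4.3.3) with a mean for each of 8 groups, or with groups split by title prefix for the DSS and wild-type prefix comparisons. Tests are two-sided, adjusted by Benjamini-Hochberg within each of 6 comparisons, and passed under 0.05. Each title carries its own code, and arrays were taken as separate animals, whose number limits precision. Knockout chronic control replicate 4 has the code 14d4_2, and what its suffix stands for is not given. The members, the gene lists and the tests were chosen with earlier results of these data known.

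Named genes were drawn from the 15 largest called differences each way without predicted genes, all clock genes, the 3 largest members of each described list, Timp1 to Timp4, and the called genotype differences. Not every one of the 3 largest list members is named. Other named genes were called list members or are marked. The step was tested on simulated data.

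Alternatives were a trended and robust prior, no dim genes (33.33%), cyclic loess, array weights, title prefix as random block, sex as covariate, fewer arrays, every cluster and each array left out. Those by 14b or 14d title, by Y-linked signal and by wild-type prefix were chosen after seeing the data. Sex was read from the Y-linked signal, since the labels do not give it.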

Additional observations from a re-analysis of the deposited data

Results flagged for a closer look

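In 44 gene values tested within the 5 knockout chronic controls, 3 had 1 array far from the rest by Dixon's criterion, and chance gives about 1 in 20. Reg3g was at 8.33 in replicate 4 and at 5.30 to 6.16 in the other 4. Retnlb was at 9.06 in replicate 1 and at 5.62 to 6.24 in the others. Ddx60 was at 7.95 in replicate 5 and at 7.29 to 7.46 in the others. The 3 arrays are different ones.

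The chronic against acute difference was not the same in knockout and wild type for 5 genes by the test of the difference. Knockout minus wild type was 1.28 for Capsl, 0.85 for Bex4, 0.64 for Gfer, 0.50 for Nprl2 and -2.64 for Nr1d1, each at a limma adjusted p of 0.0494. The cause was not tested.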

How the results depend on the processing

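No paired analysis was possible because the replicate numbers follow accession order and pair no animals. For knockout controls, wild-type controls and the genotype difference, array weights gave 4948, 5788 and 1050 calls, title prefix as a random block 38, 320 and 0, the 16 control arrays alone 2934, 2859 and 292, and all clusters tested separately 1991, 2524 and 0. Sex as covariate gave 506 calls in knockout controls and 1 for the genotype difference, and leaving out both arrays with Y-linked signal gave 120 and 3. The 8 arrays alone gave 1687 calls in knockout controls, and the 14b arrays alone as chronic controls 72. A trended and robust prior and leaving out dim genes each gave 0 for the genotype difference. Wild-type chronic controls of prefix 14 alone gave 521 wild-type calls and 1 for the genotype difference, and those of prefix 11 alone gave 74 for the genotype difference. Leaving out 1 array at a time gave 119 to 1252 calls in knockout controls, 380 to 1450 in wild-type controls and 0 to 22 for the genotype difference; the lowest wild-type counts, 393 and 380, were without wild-type acute replicates 2 and 3. The cause of these shifts was not tested.

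Of 44 called genes checked, none changed direction in any setting. Other called genes named here were not checked 1 by 1 in these settings. Of the 44, the prefix block ended the call of 39, the 14b arrays alone of 38, leaving out acute replicate 2 of 36 and leaving out both arrays with Y-linked signal of 35. Signs turned among genes without a call. With the 14b arrays alone, differences were -0.077 for Timp1, -0.15 for Arntl, 0.71 for Per3, 0.018 for Nr1d2, 0.38 for Dbp, 0.64 for Tef, 0.17 for Hlf, -0.21 for Nfil3 and 0.39 for Ciart. With the 14d arrays alone they were -0.20 for Timp4, -0.11 for Per1, -0.006 for Bhlhe40 and -0.057 for Usp2, and with the prefix block 0.003 for Tef. Leaving out 1 array at a time, the range was -0.26 to 0.34 for Timp4, -0.28 to 0.11 for Per3, -0.20 to 0.11 for Tef, -0.20 to 0.018 for Hlf and -0.01 to 0.16 for Usp2.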
